A study of Mus musculus with 2 samples.

Results

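The 10 genes described here carry the insulin signal in skeletal muscle from the receptor to the glucose transporters. They were chosen by name: Insr (the insulin receptor), Irs1 and Irs2 (its adaptor proteins), Pik3r1 (the regulatory subunit of phosphoinositide 3-kinase), Akt1 and Akt2 (kinases), Tbc1d1 and Tbc1d4 (Rab GTPase activating proteins), and Slc2a4 and Slc2a1 (the transporters GLUT4 and GLUT1). All 10 were found among 55536 annotated genes, with 68 of 141864 annotated transcripts. Total RNA was sequenced from the gastrocnemius, a large calf muscle, of female B6Cast F1 mice (strain B6CASTF1/J, an F1 hybrid), given as 18 to 20 months old in the sample descriptions. The labels name no treatment. The study holds 1 group of 2 libraries, labelled as biological replicates from separate tissue samples that share a donor identifier. There is no second condition, so the only contrast is replicate 2 against replicate 1, and neither is a control. Each comparison sets 1 library against 1 library, so the values below describe these libraries and no test of a difference was made.

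Insulin binding activates the receptor kinase, which phosphorylates the IRS adaptors. These recruit phosphoinositide 3-kinase, whose lipid product brings Akt to the membrane. Akt phosphorylates TBC1D4 and TBC1D1, which otherwise hold Rab GTPases inactive, and vesicles loaded with GLUT4 then move to the cell surface. In muscle, GLUT4 is the transporter that insulin and contraction bring to the surface, and GLUT1 is an insulin-independent transporter of many cell types.

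Replicate 2 held 43722892 gene counts and replicate 1 held 38654555, besides 195983 spike-in counts (synthetic RNAs added to each sample) in replicate 2 and 164563 in replicate 1. Skeletal muscle fibre markers were high in both libraries, with Acta1, skeletal muscle actin, at 23051 TPM in replicate 2 and 21825 TPM in replicate 1 (TPM is the level of a transcript per unit of its length, as a share of all transcripts in the library). The libraries stood apart in slow fibre markers: all 10 slow fibre markers were at least 2-fold higher in replicate 2, with a median log2 ratio of 2.52, a range of 1.74 to 2.86, and summed levels of 2443 TPM in replicate 2 and 457 TPM in replicate 1. Fast fibre markers summed to 81143 TPM in replicate 2 and 88797 TPM in replicate 1, at a median log2 ratio of 0.05, though the fast myosin gene Myh1 stood at 1.38. Of 8 fibro-adipogenic markers, 3 were at least 2-fold higher in replicate 2, among them the collagen genes Col3a1 (1.87) and Col1a1 (1.70). The most abundant of the 8, Gsn and Dcn, stood at 0.10 and -0.19, and the median of the list was 0.37. Summed levels of the list were 465 TPM in replicate 2 and 447 TPM in replicate 1, so the list did not shift as a whole. All 7 tested adipocyte markers were above 0, with a median of 0.43 and summed levels of 128 TPM in replicate 2 and 113 TPM in replicate 1. The part of these differences in the ratios of the signalling genes was not tested. In whole muscle, fewer cells of a type and less RNA per cell cannot be told apart.

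All 10 genes were detected at 1 TPM or more in both libraries. Their order by mean RSEM level was Slc2a4, Akt2, Tbc1d1, Insr, Irs1, Tbc1d4, Akt1, Pik3r1, Irs2 and Slc2a1. From Insr to Pik3r1, each gene's pair of values overlapped the pair of the next gene in this order, so neighbours there were not separated by the spread between libraries. Genes further apart in that run could be, as both Insr values lay above both Akt1 values and both Pik3r1 values. The steps from Slc2a4 to Akt2, from Akt2 to Tbc1d1, from Tbc1d1 to Insr, from Pik3r1 to Irs2 and from Irs2 to Slc2a1 had no such overlap. For scale, the median level was 8.53 TPM over the 10002 nuclear protein-coding genes at 1 TPM or more in both libraries. Slc2a4 lay above 97.4% of those genes, and Slc2a1 lay above 18.2% of them.

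**Figure D1:**
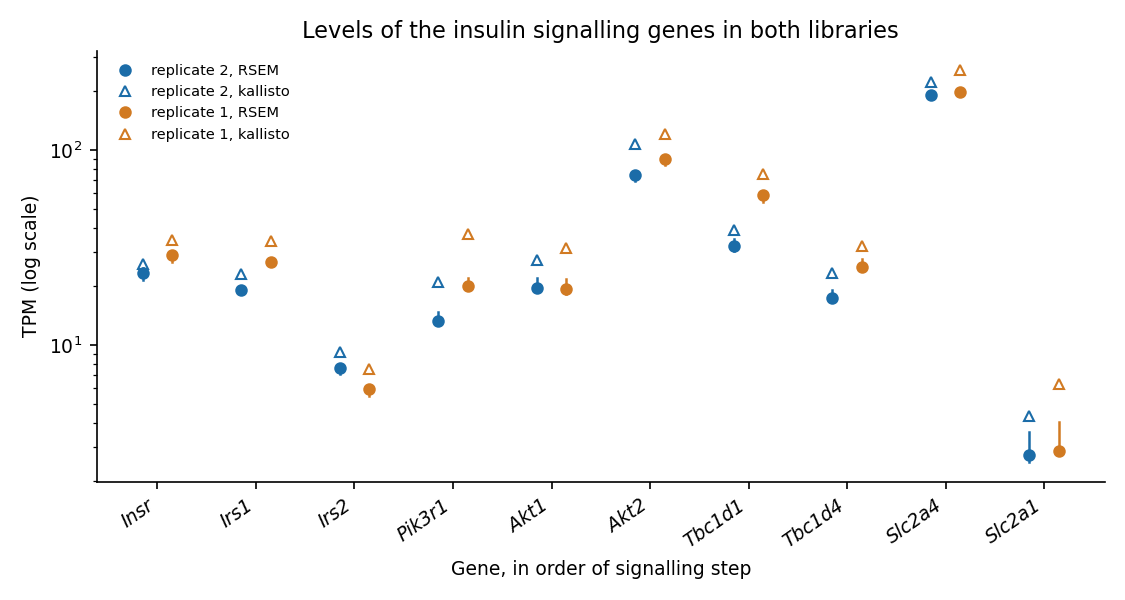
Level of each gene in TPM on a log axis, with replicate 2 (blue) left of replicate 1 (orange); circles are RSEM values with the tool's credibility interval as a line, and open triangles are kallisto values. Slc2a4 sits highest at 192 TPM in replicate 2 and 198 TPM in replicate 1, and Slc2a1 lowest at 2.72 TPM and 2.87 TPM in the same order.

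None of the 10 genes differed 2-fold between the libraries, where 4.64% of the 12969 tested genes (those whose counts in both libraries add up to 50 or more) did (2.7% higher and 1.94% lower in replicate 2). The log2 ratio, always replicate 2 over replicate 1 after TMM scaling (a scaling by the bulk of genes), was below 0 for 6 of them and above 0 for 4. Their median log2 ratio was -0.16, against 0.00 over all tested genes, and their median absolute log2 ratio was 0.27, against 0.20 over all tested genes. The counting interval of the ratio excluded 0 for 9 of the 10, against 46.4% of all tested genes. Its width falls as counts rise, so these shares depend on depth and do not show that the members differ more. Slc2a1, the exception, had the fewest counts of the 10 (239 in replicate 2 and 218 in replicate 1). Such intervals, given at 95% and exact for counts, cover counting error only, since each compares 1 library with 1 library. The reads carry no molecular identifiers, so copies of a molecule were not told apart, and the intervals may be too narrow even for counting error. The spread between the libraries beyond counting, as a biological coefficient of variation, was 0.194 over 14223 genes. Scaling by the spike-ins in place of TMM moved the median of all genes to -0.22, and the sign of Slc2a4 and Slc2a1 turned under it.

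**Figure D2:**
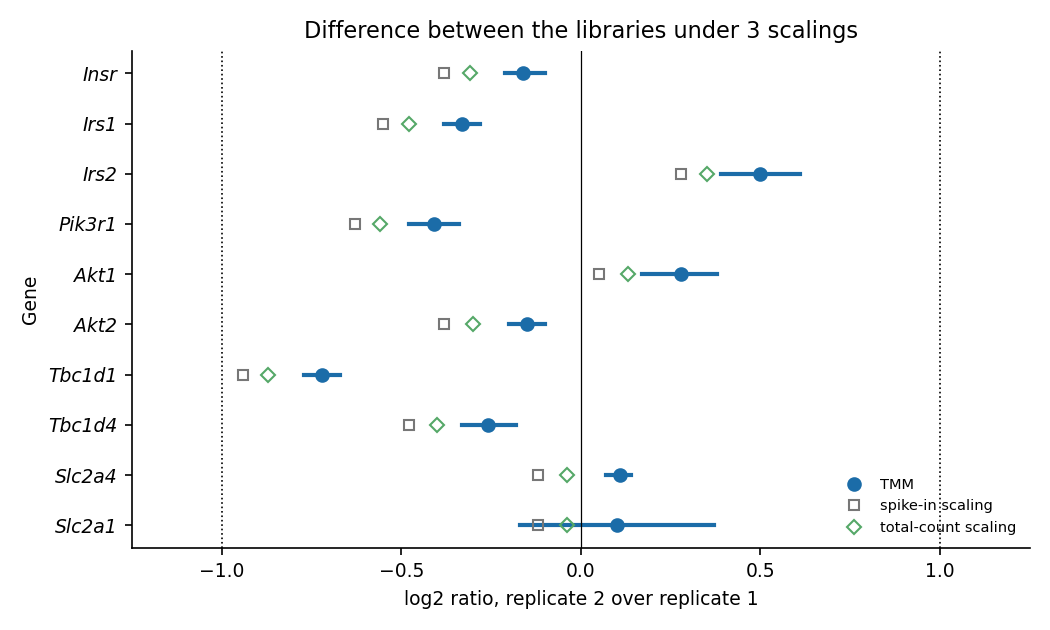
Log2 ratio of each gene, replicate 2 over replicate 1, under TMM (filled circles, with the 95% counting interval), spike-in scaling (squares) and total-count scaling (diamonds); dotted lines mark 2-fold. All 10 genes lie between the dotted lines under each scaling, Tbc1d1 nearest to one at -0.72 under TMM and -0.94 under spike-in scaling.

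Insr, the receptor tyrosine kinase that starts the pathway, lies at chr8:3122061-3279617 on the minus strand (mm10). It was at 23.5 TPM in replicate 2 and 28.8 TPM in replicate 1, from 4826 and 5272 counts in the same order. Its log2 ratio was -0.16 (counting interval -0.21 to -0.10). Insr exceeded Igf1r, the related receptor for insulin-like growth factor, 6.63 times in replicate 2 and 6.66 times in replicate 1, so this ratio within a library moved less than either level.

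The insulin receptor is made in a form that lacks and a form that holds one small coding exon next to the end of the hormone-binding subunit. The exon, at chr8:3181702-3181737 on the minus strand of mm10, is 36 bases long and keeps the reading frame. It is shown because it is the whole sequence difference between the receptor forms.
Insr 36-base exon: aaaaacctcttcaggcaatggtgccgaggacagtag
Protein-coding transcripts with this exon made up 14.2% of the TPM of those spanning it in replicate 2 and 14.8% in replicate 1, and kallisto gave 17.6% in replicate 2 and 19.6% in replicate 1. Insr-201, the full-length transcript without it, was at 14.5 TPM in replicate 2 and 18.0 TPM in replicate 1. The only annotated coding transcript with the exon, Insr-203, is a fragment of 672 bases and 5 exons that received 45.1 expected counts in replicate 2 and 51.9 in replicate 1. These shares therefore rest on few reads, and a full-length transcript with the exon was not among those quantified. Of the coding transcripts compared, only Insr-201 could receive reads from outside the fragment. The shares thus do not measure how often the exon is included, nor which receptor form prevails. A transcript with a retained intron, Insr-202, took 26.4% of all Insr TPM in replicate 2 and 24.3% in replicate 1 by RSEM, and 14.2% in replicate 2 and 12.9% in replicate 1 by kallisto.

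Irs1 and Irs2, the adaptors that dock phosphoinositide 3-kinase to the receptor, differed in level and lay on opposite sides of 0 in their ratio. Irs1 (chr1:82233101-82291416, minus strand) was at 19.2 TPM in replicate 2 and 26.8 TPM in replicate 1, from 5701 and 7026 counts in the same order. Irs2 (chr8:10984681-11008458, minus strand) was at 7.60 TPM in replicate 2 and 5.96 TPM in replicate 1, from 1551 and 1075 counts in the same order. Irs1 was thus the lower of its pair in replicate 2 and Irs2 the higher of its pair. The log2 ratio was -0.33 (counting interval -0.38 to -0.28) for Irs1 and 0.50 (0.39 to 0.61) for Irs2. Irs1 exceeded Irs2 2.53 times in replicate 2 and 4.50 times in replicate 1, and kallisto gave 2.52 times in replicate 2 and 4.56 times in replicate 1. Each has 1 annotated transcript (Irs1-201 and Irs2-201), so no split between transcripts enters these values.

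The RefSeq promoters of both adaptors are shown because they share a motif that the other promoters of these genes lack. The letters searched were CACGTG, the E-box, which reads the same on both strands. It occurred in 6.0% of 32851 RefSeq promoters (GRCm38.p6, 250 bases before each start site). Among the 14 promoters of the 8 signalling genes with an entry, the Irs1 and Irs2 promoters held it and the other 12 did not. Capitals mark it below.
Irs1, chr1:82291440-82291689, minus strand: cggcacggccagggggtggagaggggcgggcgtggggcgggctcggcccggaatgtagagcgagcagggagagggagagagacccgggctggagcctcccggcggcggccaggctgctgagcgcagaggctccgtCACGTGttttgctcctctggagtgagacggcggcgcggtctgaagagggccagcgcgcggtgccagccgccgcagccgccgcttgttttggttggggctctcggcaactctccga
Irs2, chr8:11008930-11009179, minus strand: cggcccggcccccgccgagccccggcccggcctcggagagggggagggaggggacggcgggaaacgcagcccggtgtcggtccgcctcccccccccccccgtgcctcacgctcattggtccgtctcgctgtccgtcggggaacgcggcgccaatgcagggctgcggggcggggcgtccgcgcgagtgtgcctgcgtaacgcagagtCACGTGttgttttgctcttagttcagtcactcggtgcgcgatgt
The motif ends 110 bases before the RefSeq start site in Irs1 and 39 bases before it in Irs2. The transcripts quantified here start further downstream. Irs2-201 starts at chr8:11008458, where RefSeq gives 11008929, and Irs1-201 starts at chr1:82291416, where RefSeq gives 82291439. The motif thus lies further from the start of Irs2-201 than from the RefSeq start. Both promoters are rich in G and C, at 72.4% in Irs1 and 72.8% in Irs2, against a median of 52.4% over all promoters. They also hold the GC box, GGGCGG read on both strands, which 32.7% of all promoters hold and which each of the 8 genes has in at least 1 of its promoters. A match describes letters only.

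Pik3r1 encodes the regulatory subunit of phosphoinositide 3-kinase, as a long form (p85alpha) and shorter forms that start downstream. The gene (chr13:101680563-101768217, minus strand) was at 13.2 TPM in replicate 2 and 20.1 TPM in replicate 1, from 2654 and 3453 counts in the same order. Its log2 ratio was -0.41 (counting interval -0.48 to -0.34). Pik3r1 exceeded Pik3r2, its paralogue, 2.01 times in replicate 2 and 2.65 times in replicate 1 by RSEM, and 1.46 times in replicate 2 and 2.20 times in replicate 1 by kallisto. It exceeded Pik3r3, another paralogue, 5.78 times in replicate 2 and 8.45 times in replicate 1 by RSEM, and 9.97 times in replicate 2 and 14.6 times in replicate 1 by kallisto. The catalytic partner Pik3ca was at 21.4 TPM in replicate 2 and 22.7 TPM in replicate 1.

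The long form was the leading Pik3r1 transcript by both tools in both libraries, at 82.3% of all Pik3r1 TPM in replicate 2 and 78.3% in replicate 1 by RSEM, and at 56.5% in replicate 2 and 48.9% in replicate 1 by kallisto. Pik3r1-202, with 16 exons and a coding sequence of 2172 bases, was at 10.9 TPM in replicate 2 and 15.8 TPM in replicate 1. Pik3r1-201, with 10 exons and a coding sequence of 1362 bases, was at 0.59 TPM in replicate 2 and 1.60 TPM in replicate 1. Of these transcripts alone, the long form took 94.9% in replicate 2 and 90.8% in replicate 1. On the same basis kallisto gave the long form 80.8% in replicate 2 and 75.7% in replicate 1. This basis leaves out the coding fragments Pik3r1-204 and Pik3r1-205, which also start downstream of the long form. Of all Pik3r1 TPM, kallisto placed 15.2% in replicate 2 and 4.30% in replicate 1 on Pik3r1-205. It placed 0.0003% in replicate 2 and 14.4% in replicate 1 on Pik3r1-204. The start sites of Pik3r1-202 and Pik3r1-201 lie 75587 bases apart, and the promoters before them, shown because the transcripts differ in start site, differ in composition. Capitals mark GGGCGG, the GC box, and TATAAA, the TATA box, each searched on both strands.
Pik3r1 long form, chr13:101768218-101768467, minus strand: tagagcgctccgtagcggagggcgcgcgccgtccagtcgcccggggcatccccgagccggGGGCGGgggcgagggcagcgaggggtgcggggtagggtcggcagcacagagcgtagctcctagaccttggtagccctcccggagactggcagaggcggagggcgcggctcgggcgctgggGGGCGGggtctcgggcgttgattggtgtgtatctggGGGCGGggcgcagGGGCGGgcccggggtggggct
Pik3r1 short form, chr13:101692631-101692880, minus strand: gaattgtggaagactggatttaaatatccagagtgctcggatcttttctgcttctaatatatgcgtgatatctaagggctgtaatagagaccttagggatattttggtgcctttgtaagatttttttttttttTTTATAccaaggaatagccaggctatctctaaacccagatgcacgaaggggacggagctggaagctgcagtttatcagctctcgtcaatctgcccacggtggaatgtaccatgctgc
The long-form promoter held 4 GC boxes, 30 CpG dinucleotides and 76.4% G and C, with no TATA box. The short-form promoter held no GC box, 6 CpG dinucleotides and 42.4% G and C. It held 1 match to TATAAA, which reads on the opposite strand and so appears as its reverse complement, at the end of a run of T. This match describes letters only and does not show a working TATA box. Over all RefSeq promoters, 12.4% held a TATA box and the median number of CpG was 6.

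Akt2, the Akt kinase that mouse genetics ties to insulin-stimulated glucose uptake, exceeded Akt1, the more widely expressed kinase of growth signalling, in both libraries. Akt2 (chr7:27591552-27640826, plus strand) was at 74.9 TPM in replicate 2 and 90.2 TPM in replicate 1, from 6036 and 6579 expected counts in the same order. Akt1 (chr12:112653821-112674884, minus strand) was at 19.6 TPM in replicate 2 and 19.5 TPM in replicate 1, from 1639 and 1325 counts in the same order. Akt2 therefore exceeded Akt1 3.83 times in replicate 2 and 4.63 times in replicate 1, and kallisto gave 3.91 times in replicate 2 and 3.82 times in replicate 1. The log2 ratio was -0.15 (counting interval -0.20 to -0.10) for Akt2 and 0.28 (0.17 to 0.38) for Akt1. The Akt1 levels in TPM, a share of all transcripts, were nearly equal, while its ratio scaled by TMM was above 0.

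The tools did not place the Akt2 reads on the same transcript. RSEM put 45.2 TPM in replicate 2 and 59.2 TPM in replicate 1 on Akt2-201, and 0.53 TPM in replicate 2 and 1.02 TPM in replicate 1 on Akt2-204. Kallisto put 32.0 TPM in replicate 2 and 42.2 TPM in replicate 1 on Akt2-201, and 34.0 TPM in replicate 2 and 44.9 TPM in replicate 1 on Akt2-204. Both transcripts have a coding sequence of 1443 bases and begin close together, Akt2-201 at chr7:27605858 and Akt2-204 at chr7:27605817. A fragment, Akt2-207, took 1.98% of Akt2 TPM in replicate 2 and 1.30% in replicate 1 by RSEM, and 13.9% in replicate 2 and 17.5% in replicate 1 by kallisto. Akt1 was carried by Akt1-201, at 97.7% of Akt1 TPM in replicate 2 and 83.1% in replicate 1 by RSEM, and at 82.7% in replicate 2 and 63.7% in replicate 1 by kallisto. Kallisto placed 13.6% in replicate 2 and 22.1% in replicate 1 on the fragment Akt1-208, which RSEM left at 0. Akt2 was the only one of the 10 genes with fractional expected counts.

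Tbc1d1 and Tbc1d4 are the Rab GTPase activating proteins that restrain GLUT4 vesicles until they are phosphorylated. Tbc1d1 (chr5:64156305-64351486, plus strand) was at 32.4 TPM in replicate 2 and 58.7 TPM in replicate 1, from 5055 and 8150 counts in the same order. Its log2 ratio of -0.72 (counting interval -0.77 to -0.67) was the largest of the 10 in size, a 1.65-fold lower value in replicate 2, and 90.7% of all tested genes had a smaller one. Tbc1d4 (chr14:101442360-101609191, minus strand) was at 17.3 TPM in replicate 2 and 25.1 TPM in replicate 1, from 2583 and 3023 counts in the same order. The log2 ratio of Tbc1d4 was -0.26 (counting interval -0.33 to -0.18), so both activating proteins were lower in replicate 2. Tbc1d1 exceeded Tbc1d4 1.87 times in replicate 2 and 2.34 times in replicate 1.

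Both genes have a long form with a pair of extra coding exons, described as the main form of skeletal muscle, and a short form without them. The exons are shown because their presence is what tells the forms apart, and all are of a length that keeps the reading frame.
Tbc1d1 159-base exon, chr5:64283967-64284125, plus strand: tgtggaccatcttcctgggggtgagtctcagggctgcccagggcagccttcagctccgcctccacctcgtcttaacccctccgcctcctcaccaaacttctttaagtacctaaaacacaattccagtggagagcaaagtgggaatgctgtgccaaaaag
Tbc1d1 120-base exon, chr5:64284690-64284809, plus strand: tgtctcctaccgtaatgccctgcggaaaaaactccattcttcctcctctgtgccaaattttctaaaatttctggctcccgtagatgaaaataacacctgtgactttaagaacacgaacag
Tbc1d4 165-base exon, chr14:101475077-101475241, minus strand: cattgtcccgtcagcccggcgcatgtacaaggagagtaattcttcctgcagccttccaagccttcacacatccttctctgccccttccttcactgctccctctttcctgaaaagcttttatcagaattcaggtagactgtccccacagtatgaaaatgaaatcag
Tbc1d4 24-base exon, chr14:101471428-101471451, minus strand: acaggacactgcttcagagtcaag
In Tbc1d1, the transcript with both exons (Tbc1d1-201) was at 19.5 TPM in replicate 2 and 35.8 TPM in replicate 1, and the 3 spanning coding transcripts without them summed to 1.63 TPM in replicate 2 and 3.07 TPM in replicate 1. The long form thus made up 92.3% in replicate 2 and 92.1% in replicate 1, while kallisto gave 81.6% in replicate 2 and 74.9% in replicate 1. In Tbc1d4, transcripts with both exons (Tbc1d4-201 and Tbc1d4-210) summed to 6.95 TPM in replicate 2 and 9.93 TPM in replicate 1, against 5.13 TPM in replicate 2 and 4.80 TPM in replicate 1 without them. The long form of Tbc1d4 made up 57.5% in replicate 2 and 67.4% in replicate 1, while kallisto gave 61.5% in replicate 2 and 57.9% in replicate 1. The short form of Tbc1d4 was carried by Tbc1d4-209, at 29.6% of all Tbc1d4 TPM in replicate 2 and 19.1% in replicate 1. A retained-intron transcript, Tbc1d4-208, took 29.5% of it in replicate 2 and 35.2% in replicate 1, and kallisto gave 24.1% in replicate 2 and 21.6% in replicate 1. With transcripts summed, the long form exceeded the short form in both genes, both libraries and both tools. The share in Tbc1d1 exceeded that in Tbc1d4 in each of them. For Tbc1d4 the order of the forms rests on Tbc1d4-201, whose annotated coding sequence is incomplete. Of its complete coding transcripts, the long Tbc1d4-210 lay below the short Tbc1d4-209 throughout. RSEM gave 3.12 against 5.13 TPM in replicate 2 and 3.48 against 4.80 TPM in replicate 1. Kallisto gave 4.03 against 5.55 TPM in replicate 2 and 5.6 against 9.12 TPM in replicate 1.

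**Figure D3:**
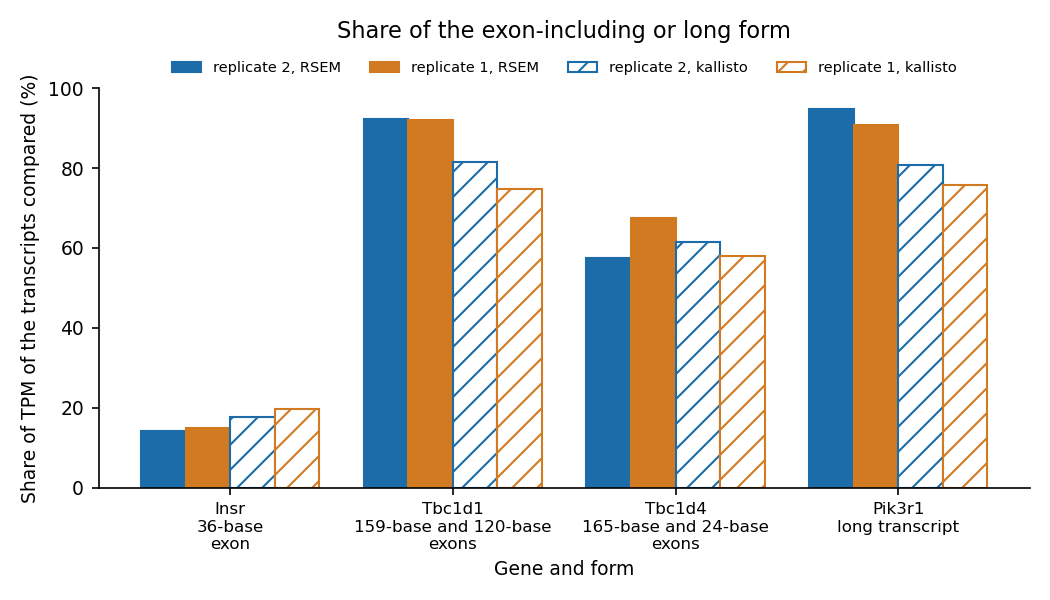
Share in percent of the TPM of the coding transcripts compared, for the Insr exon, the exon pairs of Tbc1d1 and Tbc1d4 and the long transcript of Pik3r1; blue bars are replicate 2 and orange bars replicate 1, filled for RSEM and hatched for kallisto. The Insr exon, held among coding transcripts only by a fragment, stays at or below 19.6%, which does not measure its inclusion. The other forms shown stay at or above 57.5%, for Tbc1d4 with the incomplete Tbc1d4-201 counted as long.

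Slc2a4 encodes GLUT4, the insulin-regulated glucose transporter of muscle and fat, and it was the most abundant of the 10 transcripts. The gene (chr11:69942539-69948188, minus strand) was at 192 TPM in replicate 2 and 198 TPM in replicate 1, from 14750 and 13427 counts in the same order. Its log2 ratio was 0.11 (counting interval 0.07 to 0.14) under TMM, and -0.12 under spike-in scaling. A single transcript, Slc2a4-201, took 92.5% of its TPM in replicate 2 and 92.8% in replicate 1.

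Slc2a1 encodes GLUT1 and was the least abundant. The gene (chr4:119108711-119137983, plus strand) was at 2.72 TPM in replicate 2 and 2.87 TPM in replicate 1, from 239 and 218 counts in the same order. Its log2 ratio of 0.10 had a counting interval of -0.17 to 0.37, which spans 0. Slc2a4 exceeded Slc2a1 70.7 times in replicate 2 and 68.9 times in replicate 1, and kallisto gave 51.9 times in replicate 2 and 40.5 times in replicate 1. Of the Slc2a1 TPM, 47.1% in replicate 2 and 53.0% in replicate 1 was placed on Slc2a1-204, which is annotated as a target of nonsense-mediated decay. Kallisto placed 43.3% in replicate 2 and 34.7% in replicate 1 on it, so the order of the libraries differs between the tools. The full-length coding transcript Slc2a1-201 took 52.9% in replicate 2 and 47.0% in replicate 1 by RSEM, and 34.8% in replicate 2 and 20.2% in replicate 1 by kallisto. Kallisto placed a further 21.9% in replicate 2 and 33.9% in replicate 1 on the fragment Slc2a1-203, at 0 by RSEM. Whole muscle also holds vessels, nerve and blood. Endothelial markers summed to 63.4 TPM in replicate 2 and 82.3 TPM in replicate 1, perineurial and Schwann cell markers to 42.1 TPM in replicate 2 and 50.7 TPM in replicate 1, and erythrocyte markers to 408 TPM in replicate 2 and 415 TPM in replicate 1. The part of these cells in the Slc2a1 level was not tested.

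**Figure D4:**
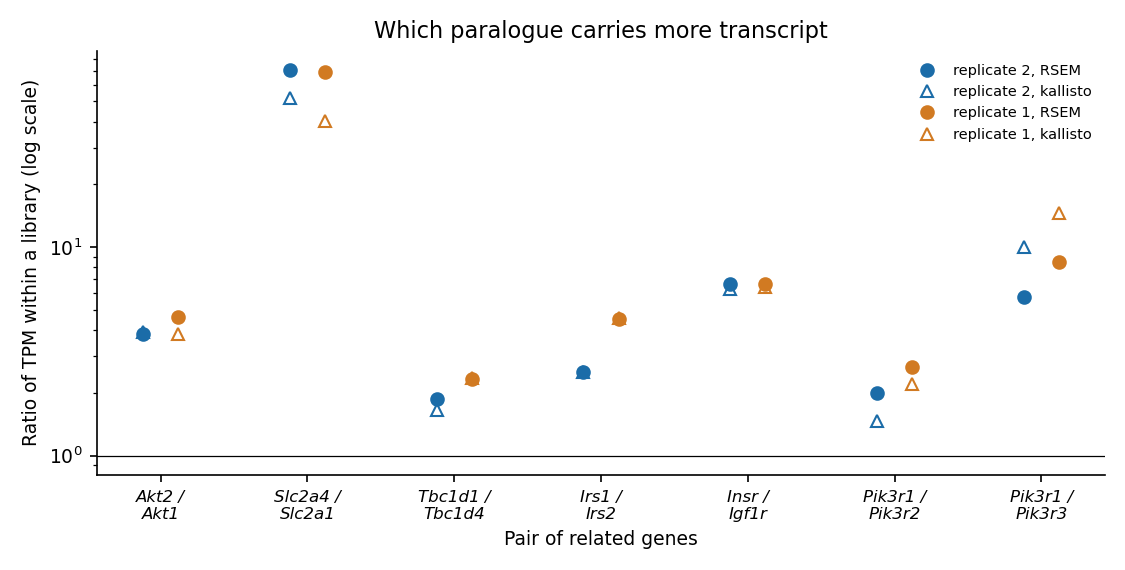
Ratio of TPM between related genes within a library, on a log axis, with replicate 2 (blue) left of replicate 1 (orange), circles for RSEM and open triangles for kallisto; the line marks equal levels. All 7 pairs lie above the line in both libraries, from 1.87 (Tbc1d1 over Tbc1d4, replicate 2) to 70.7 (Slc2a4 over Slc2a1, replicate 2) by RSEM.

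The genes differed in how much of their level was placed on transcripts that are not annotated as protein-coding. This share was highest for Slc2a1, at 47.1% in replicate 2 and 53.0% in replicate 1 by RSEM. Kallisto gave Slc2a1 43.3% in replicate 2 and 34.7% in replicate 1. By RSEM, the share was 34.9% in replicate 2 and 33.8% in replicate 1 for Tbc1d1. It was 30.3% in replicate 2 and 41.4% in replicate 1 for Tbc1d4, and 13.3% in replicate 2 and 10.1% in replicate 1 for Pik3r1. It was 28.1% in replicate 2 and 26.8% in replicate 1 for Insr, against 2.09% in replicate 2 and 1.93% in replicate 1 for Slc2a4 and 1.03% in replicate 2 and 1.22% in replicate 1 for Akt2. The median over 9235 protein-coding genes with several transcripts was 6.98% in replicate 2 and 8.18% in replicate 1. Kallisto gave 23.5% in replicate 2 and 24.1% in replicate 1 for Tbc1d1, 34.0% in replicate 2 and 32.5% in replicate 1 for Tbc1d4, and 16.2% in replicate 2 and 15.5% in replicate 1 for Insr, against a median of 9.51% in replicate 2 and 11.2% in replicate 1. Tbc1d1-206, a transcript without coding sequence, received 5.56 TPM in replicate 2 and 9.98 TPM in replicate 1 from RSEM and 0 in both from kallisto.

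Around the 10 genes, 101 other genes of the pathway were listed in 8 groups, 100 were found in the annotation and 84 were at 1 TPM or more in both libraries. Of the 89 tested, 4 were at least 2-fold higher and 2 at least 2-fold lower in replicate 2, which is 6.7% against 4.64% of all tested genes, with a median log2 ratio of 0.04. Under spike-in scaling 4 of the 89 differed 2-fold, where 684 of all 12969 tested genes did. Total-count scaling also gave 4 of the 89, where 623 of all 12969 did. Under neither of these scalings was the pathway share above that of all tested genes. The groups below hold 5 to 21 tested genes each, and their counts are to be read against the 4.64% of all tested genes. Among the 11 tested genes for receptors and for proteins that act on the receptor, 2 differed 2-fold, both higher in replicate 2. Grb14, which binds and inhibits the activated receptor, was at 10.7 TPM in replicate 2 and 5.31 TPM in replicate 1 (log2 ratio 1.06). Socs3, a feedback inhibitor of cytokine and insulin signalling, was at 2.87 TPM in replicate 2 and 0.93 TPM in replicate 1 (log2 ratio 1.29). It rested on 168 counts in replicate 2 and 66 in replicate 1. The counting intervals, 0.84 to 1.29 for Grb14 and 0.90 to 1.75 for Socs3, both reached below 2-fold. Grb2 and Sh2b1, adaptor proteins and the most abundant of that group, had log2 ratios of 0.19 and 0.08.

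Among the lipid kinases and phosphatases, 0 of 11 tested genes differed 2-fold. Inppl1, the lipid phosphatase SHIP2, led them with 41.0 TPM in replicate 2 and 27.0 TPM in replicate 1 (log2 ratio 0.57), and Pip4k2b, a phosphoinositide kinase, had a log2 ratio of -0.01. Among the regulators of Akt, 0 of 11 tested genes differed 2-fold. Mapkap1, a subunit of the Akt-activating complex mTORC2, and Ppp2ca, the catalytic subunit of protein phosphatase 2A, were the most abundant, with log2 ratios of 0.15 and 0.10.

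Among Akt substrates and downstream targets, 1 of 13 differed 2-fold, where 4.64% of all tested genes did. Foxo1, the transcription factor that Akt keeps out of the nucleus, was at 15.8 TPM in replicate 2 and 6.68 TPM in replicate 1 (log2 ratio 1.39, counting interval 1.31 to 1.47). Gys1, muscle glycogen synthase, was at 141 TPM in replicate 2 and 119 TPM in replicate 1 (log2 ratio 0.40). Hk2, the hexokinase that phosphorylates glucose as it enters the fibre, was at 104 TPM in replicate 2 and 78.7 TPM in replicate 1 (log2 ratio 0.48).

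All 21 GLUT4 vesicle trafficking genes found were at 1 TPM or more in both libraries, and none differed 2-fold (log2 ratios -0.47 to 0.31, median -0.04). Rab10, a Rab GTPase on which TBC1D4 acts, was at 114 TPM in replicate 2 and 135 TPM in replicate 1. Rac1, a GTPase of actin remodelling in muscle glucose uptake, was at 98.7 TPM in replicate 2 and 104 TPM in replicate 1. Among 9 tested Rab GTPase activating proteins other than Tbc1d1 and Tbc1d4, none differed 2-fold, and Tbc1d17 and Tbc1d15 led with log2 ratios of -0.11 and -0.24.

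Of 10 other hexose transporters, 3 were at 1 TPM or more in both libraries, and all were far below Slc2a4. Slc2a12, a transporter also known as GLUT12, was at 5.36 TPM in replicate 2 and 6.08 TPM in replicate 1. Slc2a8, an intracellular transporter, was at 5.74 TPM in replicate 2 and 5.62 TPM in replicate 1. Slc2a3, the high-affinity transporter GLUT3, was at 2.20 TPM in replicate 2 and 4.99 TPM in replicate 1 (log2 ratio -1.06).

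Of the 8 known regulators of the Slc2a4 gene, all were at 1 TPM or more in both libraries and 2 differed 2-fold, in opposite directions, where 4.64% of all tested genes differed. Klf15, a transcription factor of muscle metabolism, was at 32.0 TPM in replicate 2 and 17.6 TPM in replicate 1 (log2 ratio 1.00). Myod1, the myogenic transcription factor, was at 6.51 TPM in replicate 2 and 19.9 TPM in replicate 1 (log2 ratio -1.46). Mef2d, a transcription factor that binds the Slc2a4 promoter, and Prkaa2, a catalytic subunit of AMP-activated kinase, were the most abundant, with log2 ratios of 0.14 and 0.08. Slc2a4 itself had a log2 ratio of 0.11. Under spike-in scaling the log2 ratios of Grb14 (0.84) and Klf15 (0.78) were under 2-fold, and those of Foxo1 (1.17), Socs3 (1.08), Slc2a3 (-1.28) and Myod1 (-1.68) were not.

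**Figure D5:**
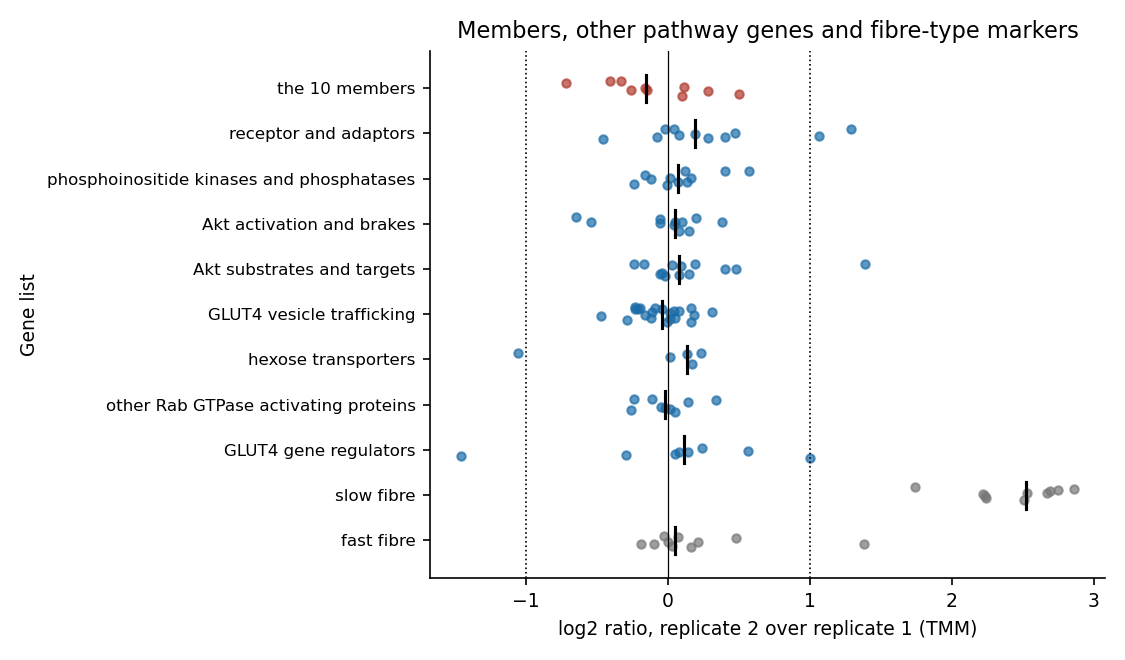
Log2 ratio, replicate 2 over replicate 1, of the 10 signalling genes (red), of other pathway genes by group (blue) and of fibre-type markers (grey); each point is 1 tested gene, black bars are medians and dotted lines mark 2-fold. The 10 genes lie between -0.72 and 0.50, and the slow fibre markers between 1.74 and 2.86.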

How the data were processed

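Total RNA-seq libraries of gastrocnemius were analysed as 1 group of 2 replicates, labelled as biological replicates from separate tissue samples that share a donor identifier. Per the file headers, the deposited gene and transcript tables carry RSEM's expected counts and TPM, and other deposited tables hold kallisto's estimated counts and TPM. The authors' build was mm10 with GENCODE M21. The sources used here do not give the aligner or the versions of their tools. Expected counts were rounded. Genes whose counts added up to 50 or more were scaled by TMM in edgeR 4.0.16 (R 4.3.3), which also gave log2 CPM with a prior count of 2. An alternative used the size factors of DESeq2 1.42.0. Intervals at 95% are exact conditional binomial intervals. An exact permutation test on 2 paired values has a smallest p of 0.5, so none was run. A gene counts as different at 2-fold. Other columns of the deposited tables that give intervals of TPM are RSEM's credibility bounds.

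All 10 members were named, with the 2 genes of highest mean TPM in each pathway list and pathway genes that differ 2-fold. Transcripts of 10% or more of a member's TPM in both libraries by either tool were named too. Of the cell type markers, only Acta1, Myh1, Col1a1, Col3a1, Gsn and Dcn are named. The members and gene lists were chosen with earlier results of these data known. Exons were compared where coding transcripts that hold and that skip one, of a length divisible by 3, each reached 1 TPM by both tools; this rule, the Pik3r1 transcripts and the motifs were chosen after the values and sequences were seen. Igf1r, Pik3ca, Slc2a3 and the paralogues of Pik3r1 are named as relatives of members. Exon sequences came from GENCODE M21 transcripts of the same length as those deposited, and promoters from RefSeq (GRCm38.p6), with an entry for 8 members. Genes overlapping members had at most 68 counts each. The steps were tested on simulated data. Python 3.11.15, numpy 2.4.6, pandas 2.3.3 and matplotlib 3.10.9 did the rest.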

Additional observations from a re-analysis of the deposited data

How the results depend on the processing

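No member differed 2-fold under any of the 9 alternatives tried (DESeq2 size factors, spike-in or total-count scaling, other prior counts and count filters, kallisto counts, TPM ratios). The median log2 ratio of the members stayed below 0 in all of them, from -0.38 with spike-in scaling to -0.14 with kallisto counts or no filter. The signs of Slc2a4 and Slc2a1 turned under spike-in scaling (-0.12 for both), total counts (-0.04 for both) and TPM ratios (-0.04 and -0.07). The 7 paralogue ratios stayed above 1 in both libraries in all alternatives. Genes differing 2-fold numbered 602, but 2712 with no count filter and 194 with a minimum of 500, where Slc2a1 drops out, since the filter sets how many low genes are compared. The median member level of 22.1 TPM was 29.3 TPM by kallisto and 47.8 TPM when rescaled to nuclear protein-coding genes, and without one library it was 19.4 TPM (replicate 2 alone) and 26.0 TPM (replicate 1 alone). No paired analysis was possible because there is 1 group. Depth limits Slc2a1, with under 240 counts per library, and the Insr exon.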
